A study of Mus musculus with 4 samples.

Results

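Matrix metalloproteinases, the ADAMTS proteases and the tissue inhibitors of metalloproteinases were examined in polyadenylated RNA of the unmanipulated adult mouse heart. Members were the rows whose gene symbol is Mmp, Adamts or Timp followed by its number, which gave 46 of 23420 gene rows: 23 matrix metalloproteinases (MMPs), 19 ADAMTS proteases and 4 TIMPs. All 4 libraries belong to 1 group, wild-type C57BL/6J mice labelled male and 12 weeks old, with no treatment, transgene or control group. Tissue is labelled as whole heart, but per the labels' protocols RNA came from frozen ventricular apex. The labels do not say that the libraries came from separate animals, so p-values measure only the spread between these samples, which may be partly technical. Counts of sex-linked genes, given below, part libraries 1 and 4 from libraries 2 and 3, so those pairs are not repeats of the same animal.

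The libraries, numbered as in the submitters' titles, held 14412049, 13919367, 10523709 and 15359296 reads assigned to genes. Libraries 2 and 3 went against their label: Xist, the RNA of the inactive X chromosome in female cells, had 5, 1897, 1806 and 19 counts in libraries 1 to 4, and the Y-linked gene Ddx3y had 341, 0, 1 and 437 counts. Values are therefore given for each library, and the spread, together with ratios that move by over 1.5 times, is also given in libraries 1 and 4 alone. Markers of heart muscle cells summed to 75830 ± 4921 counts per 1000000 gene counts (CPM; SD, n = 4), those of fibroblasts to 734 ± 41.2 CPM and those of endothelium to 1013 ± 6.11 CPM. The neutrophil list summed to 7.06 ± 0.332 CPM, nearly all of it Cxcr2 (103, 93, 65 and 99 counts), while S100a9 had 2, 9, 7 and 3 counts, S100a8 1, 0, 0 and 1 and Mpo 0 in each library.

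MMPs and ADAMTS proteases are zinc-dependent enzymes that cut the proteins and proteoglycans of the extracellular matrix. They are made as inactive precursors, and TIMPs block the active enzymes by binding their catalytic site. In the heart this balance is known for its role in the turnover of collagen and basement membrane, and TIMP4 is the family member best known for its expression in heart muscle. MMP2 is activated at the cell surface by MMP14, with TIMP2 as the bridge between them.

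The heart's reads for this system came from a few genes. Of the 46 members, 26 had a mean of at least 1 CPM (56.5%, against 52.8% of all gene rows), 14 were detected below that level and 6 had 0 counts in every library (13%, against 25.5% of all gene rows). The members together took 0.114, 0.0991, 0.102 and 0.113% of gene counts in libraries 1 to 4. The 4 TIMPs summed to 440 ± 74.5 CPM, the 23 MMPs to 354 ± 23.0 CPM and the 19 ADAMTS proteases to 275 ± 15.9 CPM (SD, n = 4). All 4 TIMPs, 9 of 23 MMPs and 13 of 19 ADAMTS proteases reached 1 CPM.

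**Figure D1:**
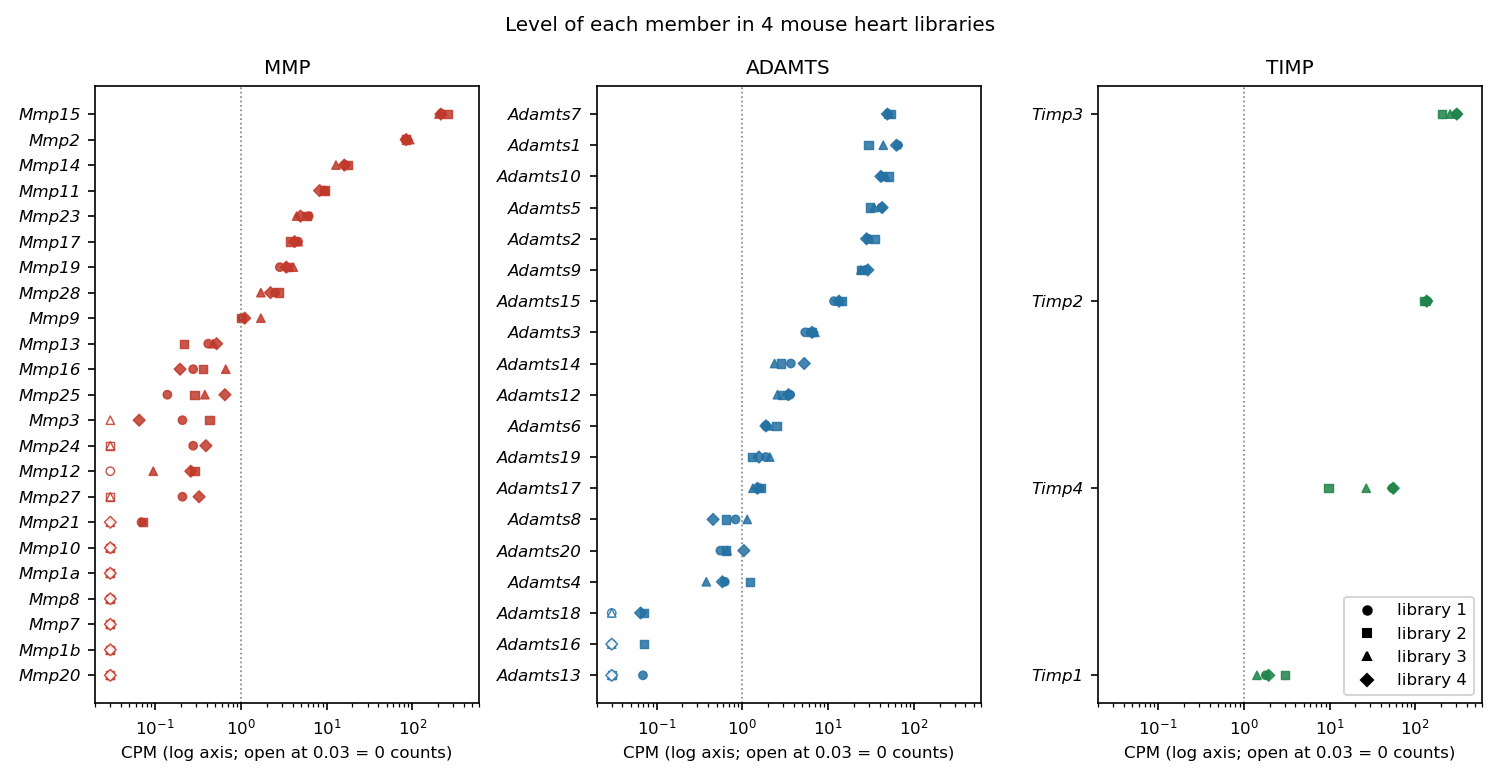
Level of each of the 46 members in CPM on a log axis, 1 point per library, by family; open points mark 0 counts and the dotted line marks 1 CPM. Levels run from 0 counts for 6 MMPs to a mean of 268 CPM for Timp3, and the points of Timp4 are spread far wider than those of Timp2 or Mmp2.

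Among the inhibitors, Timp3 had 305, 205, 255 and 305 CPM in libraries 1 to 4. TIMP3 is the inhibitor that stays bound to the matrix and also blocks several ADAM and ADAMTS enzymes. Its lowest value was in library 2, and libraries 1 and 4 were alike. Timp2 was steady at 138, 126, 134 and 136 CPM (coefficient of variation 3.95%). Timp4 had 54.3, 9.70, 26.8 and 55.5 CPM, high in libraries 1 and 4, intermediate in library 3 and lowest in library 2. Timp1, the inducible inhibitor, had only 26, 42, 15 and 30 counts, or 1.80, 3.02, 1.43 and 1.95 CPM, and was highest in library 2. Timp3 made up 60.8 ± 0.753% of the TIMP reads, or 43.2 ± 2.05% of the TIMP sum per kilobase of exon, and Timp1 0.493 ± 0.257% of the reads (SD, n = 4).

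Levels of different genes are compared per kilobase of exon, since long transcripts give more reads. On that scale Timp2 (34.3 ± 1.35 CPM per kb) and Timp3 (32.9 ± 5.86 CPM per kb) did not differ beyond their spread. Their log2 ratio, Timp3 over Timp2, was 0.08, -0.36, -0.13 and 0.10 in libraries 1 to 4 (mean -0.08 ± 0.22, exact sign-flip permutation p = 0.625), and it was 0.64 with the length of the longest transcript in place of all exons. Timp4 stood at 6.20 ± 3.78 and Timp1 at 2.31 CPM per kb. Timp3 exceeded Timp4 by 6.42-fold (log2 ratio 2.68 ± 0.91) and Timp1 by 14.3-fold (log2 ratio 3.84 ± 0.65), in 4 of 4 libraries each. With the length of the longest transcript these log2 ratios were 3.37 and 4.62. The ratio to Timp4 was 2.01 in libraries 1 and 4 alone. With 4 libraries the smallest two-sided p of the exact sign-flip permutation test is 0.13, so none of the 12 ratios examined could pass 0.05. The 10 ratios that had the same sign in 4 of 4 libraries each had p = 0.13 in that exact permutation test (adjusted p = 0.15).

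Of the 4 TIMP genes, 3 lie inside a synapsin gene in the GENCODE M21 annotation of GRCm38. Timp3 (chromosome 10, 86300372 to 86349506, + strand) lies within Syn3, Timp4 (chromosome 6, 115241892 to 115252205, - strand) within Syn2 and Timp1 (chromosome X, 20870166 to 20874735, + strand) within Syn1, each host being on the other strand. The libraries did not keep the strand. Exons of Syn3 cover 21.3% of the exon bases of Timp3, and those of Syn2 1.53% of the exon bases of Timp4. The hosts were low, with 67, 64, 36 and 60 counts of Syn3, 63, 33, 27 and 48 counts of Syn2 and 10, 4, 4 and 8 counts of Syn1 in libraries 1 to 4. Reads in shared exons may have been left uncounted, and their part in the level of Timp3 was not tested. Timp2 lies on chromosome 11 (118301069 to 118355740) with no exon bases shared.

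Of the MMPs, a membrane-anchored enzyme led. Mmp15 (chromosome 8, 95352268 to 95375080), which is held in the cell membrane by a transmembrane segment, had 219.9, 257, 204 and 215 CPM. It alone made up 63.2 ± 2.43% of the MMP reads, and 52.8 ± 2.66% of the MMP sum per kilobase (SD, n = 4). Its highest value was in library 2. Mmp2 (chromosome 8, 92827291 to 92853420), the gelatinase that cuts denatured collagen and type IV collagen of basement membranes, had 83.3, 84.7, 93.0 and 84.6 CPM and 24.5 ± 2.36% of the MMP reads. It was the steadiest abundant MMP, with a coefficient of variation of 5.18%. Mmp14, the activator of MMP2, had 16.4, 17.6, 12.8 and 16.1 CPM, lowest in library 3.

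The activator was thus scarcer than its target at the level of RNA. Per kilobase, Mmp14 stood 9.74-fold below Mmp2, a log2 ratio of -3.28 ± 0.27, and 15.7-fold below Mmp15, a log2 ratio of -3.98 ± 0.12 (SD, n = 4). With the length of the longest transcript these log2 ratios were -2.54 and -3.17. Both ratios had the same sign in 4 of 4 libraries. The other gelatinase, Mmp9, which neutrophils and macrophages are known to make, had only 15, 14, 18 and 17 counts, or 1.04, 1.01, 1.71 and 1.11 CPM. Mmp2 exceeded it by 74.1-fold per kilobase (log2 ratio 6.21 ± 0.28). At 14 counts the exact Poisson limits of 95% on Mmp9 in library 2 ran from 0.55 to 1.69 CPM, and its value in library 3, 1.71 CPM, had limits of 1.01 to 2.70 CPM.

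Several other MMPs were detected at low levels. Mmp11, a stromelysin that is activated inside the cell by furin, had 9.37, 9.63, 9.50 and 8.27 CPM. Mmp23, an MMP without the usual hemopexin domain, had 6.18, 5.82, 4.47 and 4.95 CPM. Values of Mmp11 lay close together, and those of Mmp23 were lower in libraries 3 and 4. The mean was 4.32 ± 0.436 CPM for Mmp17, which is held to the membrane by a lipid anchor, 3.46 ± 0.510 CPM for Mmp19 and 2.31 ± 0.464 CPM for Mmp28 (SD, n = 4). In the annotation 28.3% of the exon bases of Mmp19 are shared with other genes, so its level is uncertain. The membrane enzymes Mmp16, Mmp24 and Mmp25 stayed at 0 to 10 counts per library and Mmp21 at 0 or 1.

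**Figure D2:**
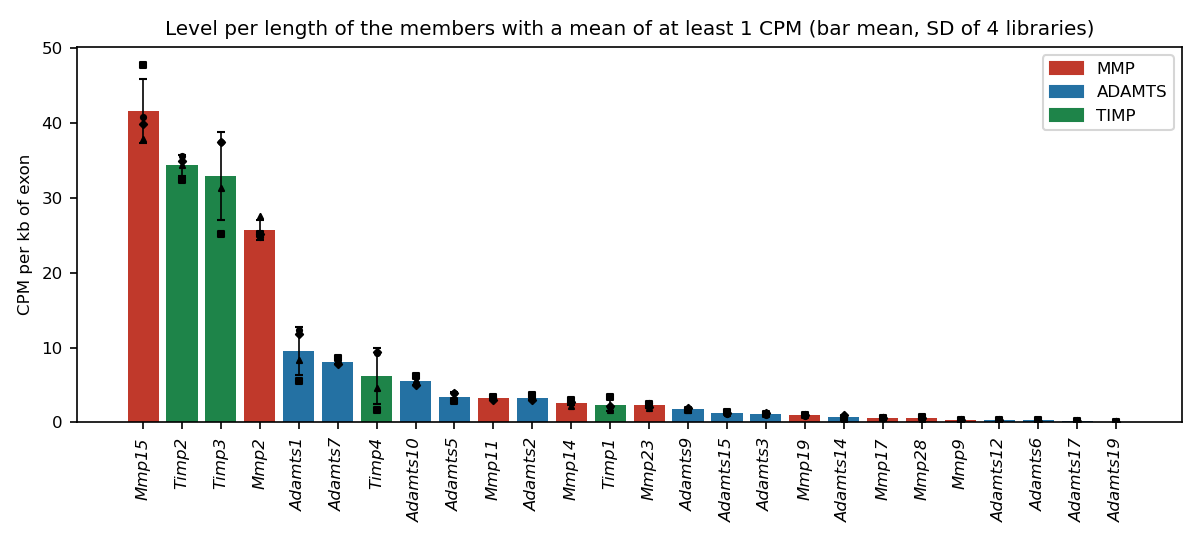
Level per kilobase of exon of the 26 members with a mean of at least 1 CPM, in order of their mean; bars are means of 4 libraries, error bars the SD and points the libraries. Mmp15, Timp2, Timp3 and Mmp2 stand at 25.6 to 41.5 CPM per kb, and no other member has a mean of 10 CPM per kb.

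In the order per kilobase, Mmp15 (41.5 ± 4.29 CPM per kb) came first, ahead of Timp2 in 4 of 4 libraries. Timp2 and Timp3 could not be ordered, and both had a higher mean than Mmp2 (25.6 ± 1.33 CPM per kb). With the length of the longest transcript Timp3 came first and Mmp15 second. Timp3 exceeded Mmp2 in 4 of 4 libraries by a log2 ratio of 0.34 ± 0.30. In library 2, however, they were nearly equal, at 25.19 and 25.13 CPM per kb. After a step of 1.5 ± 0.56 on the log2 scale came Adamts1, Adamts7, Timp4 and Adamts10, whose neighbours did not differ in the same direction in all 4 libraries. Summed per kilobase, TIMPs (75.7 ± 10.4) and MMPs (78.5 ± 4.26) did not differ beyond their spread, with a log2 ratio of -0.07 ± 0.27 that was above 0 in 2 of 4 libraries and turned to 0.20 with the length of the longest transcript. ADAMTS proteases stood 2.18-fold below MMPs on that scale (log2 ratio -1.13 ± 0.17, the same sign in 4 of 4).

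The secreted collagenases, which can cut intact fibrillar collagen, had few or no reads. MMP14, given above, is also known to cut fibrillar collagen. Mmp8, the neutrophil collagenase, and Mmp1a and Mmp1b, the mouse counterparts of human MMP1, had 0 counts in every library. Mmp13, the main interstitial collagenase of the mouse, had 6, 3, 5 and 8 counts. Over all 54214421 gene counts, the floor of 3 counts is worth 0.0553 CPM. The exact Poisson limits of 95% ran from 0 to 0.068 CPM for a gene with 0 counts and from 0.254 to 0.614 CPM for Mmp13. Molecules were not tagged before amplification, so these limits and floors stand for counting error alone. Mmp1a and Mmp1b are close copies, and reads that align to both may not have been counted.

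These 4 collagenases belong to a gene cluster on chromosome 9 (7272514 to 7699585, 427 kb) that also holds the stromelysins Mmp3 and Mmp10, the matrilysin Mmp7, the macrophage elastase Mmp12, the enamel protease Mmp20 and Mmp27. None of its 10 genes reached 1 CPM, and 6 of them (Mmp1a, Mmp1b, Mmp7, Mmp8, Mmp10 and Mmp20) had 0 counts throughout. The cluster summed to 0.833, 0.934, 0.570 and 1.17 CPM in libraries 1 to 4, a total of 49 reads. Mmp3 had 3, 6, 0 and 1 counts, Mmp12 0, 4, 1 and 4, and Mmp27 3, 0, 0 and 5. In contrast, the 13 MMPs outside the cluster summed to 353 ± 23.0 CPM, and 9 of them reached 1 CPM. Genes of a cluster share their surroundings on the chromosome and are not independent observations.

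The promoters of the cluster held letters that were rare or absent in those of the other members, a split made after the values were seen. RefSeq promoter windows on GRCm38.p6, 300 bases that run from 250 before to 50 after a gene's start, were available for 32 of the 46 members, 35 windows in all. Windows were searched on both strands. TGANTCA is the core of AP-1 sites, which bind the Fos and Jun proteins. TATAAA is a TATA box. GGGCGG is a GC box, which binds Sp1, and the last motif was CCAAT. Each motif was searched on its own, whether or not it overlapped another. AP-1 letters stood in 8 of 12 windows of the cluster and in 0 of 23 windows of the other members, against 7.81% of all 32851 promoters. TATA letters stood in 9 of 12 cluster windows and 2 of 23 others, against 13.6% of all promoters. GC box letters ran the other way, in 0 of 12 cluster windows and 18 of 23 others, against 35.7% of all promoters. CCAAT stood in 4 of 12 and 6 of 23 windows, against 37.4%. A match of letters is a description of the window and not evidence that a factor binds there.

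The 8 cluster windows with AP-1 letters are shown from 8 bases before that match to 4 bases after the TATA letters that follow it, 5′ to 3′ on the gene's strand, because they carry this difference. Capitals mark TGANTCA and TATAAA. Coordinates are on GRCm38.p6.
Mmp13 (chr9:7272471-7272507, + strand): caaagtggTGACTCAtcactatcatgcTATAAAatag
Mmp12 (chr9:7347322-7347387, + strand): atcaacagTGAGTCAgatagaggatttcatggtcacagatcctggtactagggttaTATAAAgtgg
Mmp1b (chr9:7388066-7388127, - strand): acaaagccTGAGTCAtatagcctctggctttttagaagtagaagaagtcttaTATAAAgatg
Mmp3 (chr9:7445768-7445824, + strand): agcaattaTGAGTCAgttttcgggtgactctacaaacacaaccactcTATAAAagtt
Mmp1a (chr9:7464060-7464122, + strand): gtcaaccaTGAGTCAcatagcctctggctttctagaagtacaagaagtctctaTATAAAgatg
Mmp10 (chr9:7502271-7502322, + strand): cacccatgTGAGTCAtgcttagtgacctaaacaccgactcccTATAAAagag
Mmp20 (chr9:7628128-7628182, + strand): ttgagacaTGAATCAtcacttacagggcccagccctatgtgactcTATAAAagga
Mmp7 (chr9:7692019-7692073, + strand): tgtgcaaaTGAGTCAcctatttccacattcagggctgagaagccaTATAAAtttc
In each of the 8, TATAAA followed the AP-1 letters on the gene's own strand, with 12 to 41 bases between them. The centre of the match was G in 6 of the windows, C in Mmp13 and A in Mmp20. Mmp8 and Mmp27 had no AP-1 letters in their windows, nor did the other windows of Mmp7 and Mmp12, genes that have a pair of annotated starts.

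The base composition of the windows differed as well. The G and C share of the cluster's windows had a median of 41.7% (range 37.7 to 52.0%), against 64.7% (range 53.3 to 77.3%) for the 17 windows of 16 members that reached 1 CPM and 52.7% for all promoters. The 6 members under 1 CPM outside the cluster that had a window also had a median of 64.7%, so a G and C rich window did not by itself go with a level of 1 CPM.

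**Figure D3:**
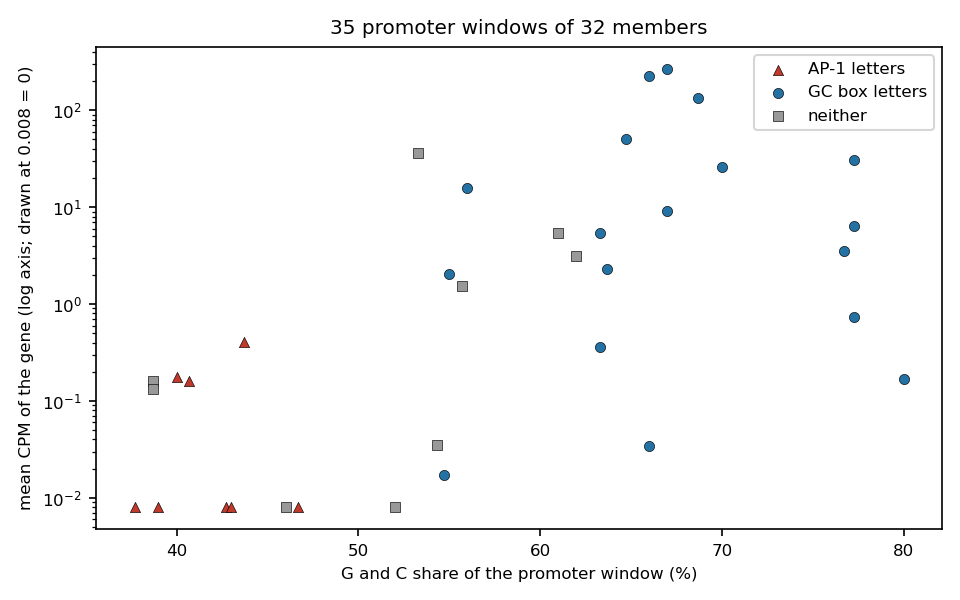
G and C share of each of 35 promoter windows (horizontal axis, %) against the mean CPM of its gene (log axis; genes with 0 counts are drawn at the foot of the axis), marked by the letters found. Windows with AP-1 letters lie at a low G and C share and belong to genes below 1 CPM, and windows with GC box letters span genes from 0.0174 to 268 CPM.

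The ADAMTS proteases were spread more evenly over their members than the MMPs. Proteoglycan-cutting enzymes were the largest class, 7 genes that summed to 130 ± 23.8 CPM and 16.4 ± 3.72 CPM per kb, of which 4 reached 1 CPM. Adamts1, which cuts versican and aggrecan, had 65.3, 29.5, 44.0 and 62.8 CPM. Adamts5, another aggrecan- and versican-cutting enzyme, had 41.9, 30.7, 34.3 and 42.7 CPM. Both were lowest in library 2 and next lowest in library 3. These genes are neighbours on chromosome 16 and are read from the same strand, Adamts1 at 85793827 to 85803113 and Adamts5 at 85856173 to 85901828, with 53.1 kb between them. Adamts1 exceeded Adamts5 by 2.64-fold per kilobase (log2 ratio 1.40 ± 0.31), with log2 ratios of 1.66, 0.97, 1.38 and 1.58 in libraries 1 to 4.

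The remaining proteoglycan-cutting enzymes differed widely in level. Adamts9 had 27.7, 24.1, 24.1 and 29.0 CPM and Adamts15 had 11.7, 14.7, 13.7 and 13.4 CPM. In the annotation 12.0% of the exon bases of Adamts9 are shared with other genes. Adamts4, an inducible aggrecan-cutting enzyme, had 9, 17, 4 and 9 counts, and Adamts5 exceeded it by 24.2-fold per kilobase (log2 ratio 4.59 ± 0.78). Adamts8 had 12, 9, 12 and 7 counts and Adamts20 had 8, 9, 7 and 16 counts. Adamts8 is a neighbour of Adamts15 at a distance of 20.1 kb on chromosome 9, and its mean level per kilobase was 0.167 ± 0.0632 CPM, against 1.29 ± 0.118 CPM for Adamts15 (SD, n = 4).

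Enzymes that remove the amino-terminal propeptide of fibrillar procollagen were all detected. Adamts2, the main one, had 29.1, 34.7, 30.0 and 28.1 CPM, and Adamts3 had 5.41, 6.39, 7.03 and 6.51 CPM. The third, Adamts14, averaged 3.53 ± 1.28 CPM and ranged from 2.38 CPM (25 counts) in library 3 to 5.27 CPM (81 counts) in library 4. Per kilobase Adamts2 exceeded Adamts3 by 2.79-fold (log2 ratio 1.48 ± 0.19, 4 of 4 libraries).

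Adamts7, which cuts cartilage oligomeric matrix protein, had 50.1, 53.7, 50.7 and 49.2 CPM and was the steadiest member of at least 1 CPM, with a coefficient of variation of 3.89%. Its relative Adamts12 averaged 3.14 ± 0.477 CPM. Adamts10, an enzyme tied to fibrillin microfibrils, had 42.9, 51.6, 47.1 and 41.3 CPM, highest in library 2, and Adamts6, of the same class, averaged 2.07 ± 0.303 CPM. Adamts13, which cuts von Willebrand factor and is known to be made mainly in liver, had 1, 0, 0 and 0 counts. Adamts16 and Adamts18 likewise had 0 or 1 count in each library, while Adamts17 and Adamts19 averaged 1.52 ± 0.141 and 1.70 ± 0.350 CPM (SD, n = 4).

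The spread between the libraries was then tested. For each of the 12360 genes that averaged 1 CPM or more, edgeR's quasi-likelihood fit gave the gene's quasi-dispersion. This is its variance between libraries relative to that expected from the fitted count model. Its ratio to the trend for genes of like abundance is called the variance ratio below. Of the 26 members tested, 1 was called at a Benjamini-Hochberg adjusted p under 0.05, against 0.396% of all genes tested (49 genes). At an unadjusted p under 0.05 there were 3, against 5.96% of all genes tested. The called member was Timp4, known to vary in these data when the members were chosen. Its quasi-dispersion was above the trend by 6.47 on the log2 scale (adjusted p = 0.00531, edgeR), and its highest library stood 5.72-fold above its lowest.

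The exact Poisson limits of 95% on Timp4 reached 8.13 to 11.5 CPM for library 2, and 23.8 to 30.1 CPM for library 3, while those of libraries 1 and 4, 50.5 to 58.2 CPM and 51.8 to 59.3 CPM, overlapped. The call remained when any single library was left out, with adjusted p from 0.00614 to 0.030 (edgeR). In libraries 1 and 4 alone the adjusted p was 0.9997, and in libraries 2 and 3 alone it was 4.11e-05 (edgeR). In a bulk sample, fewer cells that make Timp4 and less Timp4 RNA per cell cannot be told apart.

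Adamts1 and Timp3 had the next largest ratios among members and were not called. Adamts1 was above the trend by 4.63 on the log2 scale (adjusted p = 0.0691, edgeR) with a highest library 2.21-fold above its lowest. Timp3 was above it by 3.21 (unadjusted p = 0.00716, adjusted p = 0.396, edgeR) and Adamts5 by 2.02 (adjusted p = 0.866, edgeR). Without library 2 the adjusted p of Adamts1 was 0.353 (edgeR), whereas limma-voom gave it 0.0451 over all 4 libraries. In libraries 1 and 4 alone its log2 variance ratio was -0.36.

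**Figure D4:**
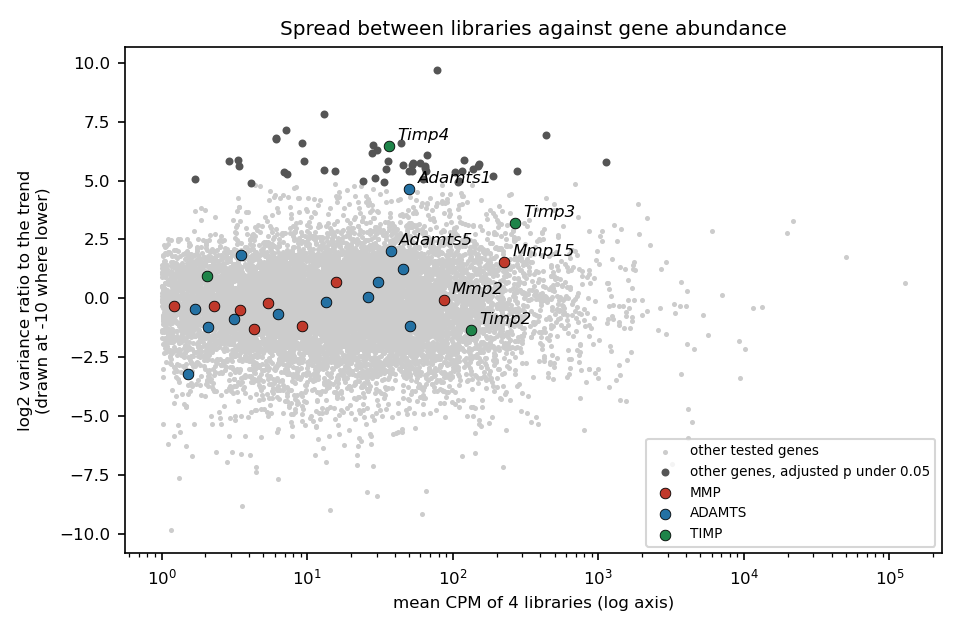
Quasi-dispersion between libraries relative to the trend for genes of like abundance (vertical axis, log2 variance ratio) against mean CPM (log axis) for 12360 tested genes. Members are coloured by family and called genes that are no members are dark grey. Timp4, at 6.47, lies among the called genes, Adamts1 just below them, and most members lie around 0 with the other genes.

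The spread of the members was set beside that of all genes, as a description with no test. The median log2 variance ratio was -0.17 over the 26 tested members and -0.23 over all genes tested, and 0.71 against -0.24 where the mean was at least 10 CPM. For that last set it was -2.02 over members and -1.03 over all genes in libraries 1 and 4 alone, and -0.27 and -1.15 in libraries 2 and 3 alone. The median coefficient of variation was 13.8% over members and 9.60% over all genes, and 10.1% over the 13 members with a mean of at least 10 CPM against 7.31% over all 7774 such genes. Timp4, Adamts1, Timp3 and Adamts5 were lowest in library 2, but 8 of the 26 tested members were, 30.8% against 30.7% of all genes tested, a share near the background. Another 11 members, among them Mmp15, Mmp14 and Adamts10, were highest in library 2 (42.3%, against 28.5% of all genes tested). Library 3 held the lowest value of 9 members (34.6%, against 33.4% of all genes tested) and the highest of 6 (23.1%, against 22.9%), library 1 the lowest of 5 (19.2%, against 19.8%) and library 4 the lowest of 4 (15.4%, against 16.1%).

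**Figure D5:**
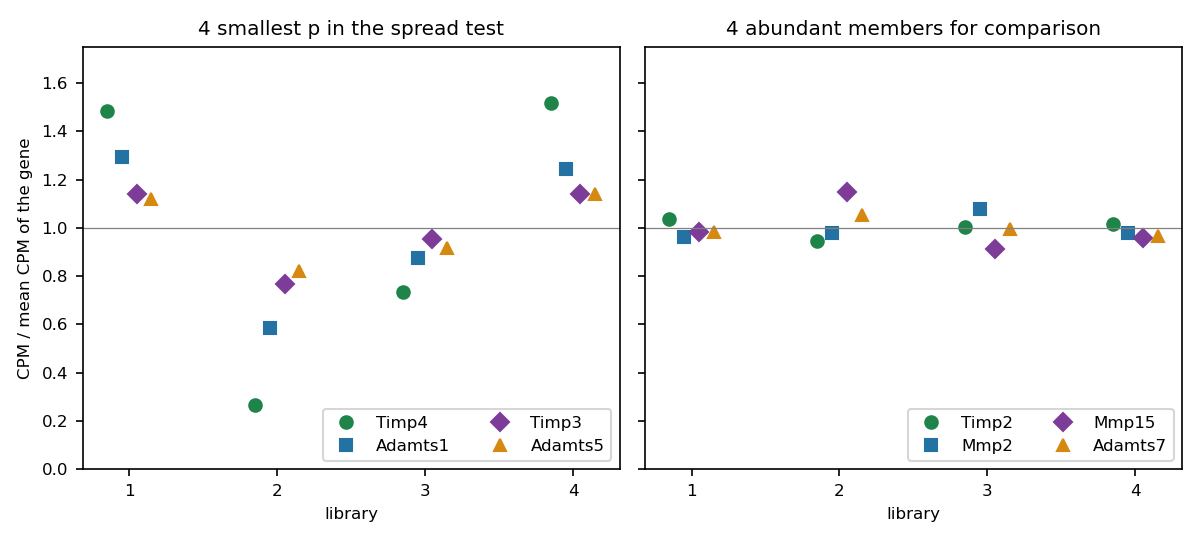
CPM of 8 members in each library, divided by the gene's own mean over 4 libraries; left, the 4 members with the smallest p in the test of spread, right, 4 abundant members. Timp4 lies between 0.265 and 1.52 times its mean and is lowest in library 2, while the 4 members on the right stay between 0.911 and 1.15 times theirs.

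Promoter windows of the members at the top of that test, and of the most abundant MMP, were compared because 3 of these genes were lowest in the same library. That reason is weak, since 30.8% of tested members were lowest in library 2, against 30.7% of all genes tested. Adamts5, also lowest there, had no window. Capitals mark GGGCGG or its reverse complement and TATAAA. Sequences are from RefSeq, 5′ to 3′ on the gene's strand, with coordinates on GRCm38.p6.
Timp4 (chr6:115252156-115252455, - strand): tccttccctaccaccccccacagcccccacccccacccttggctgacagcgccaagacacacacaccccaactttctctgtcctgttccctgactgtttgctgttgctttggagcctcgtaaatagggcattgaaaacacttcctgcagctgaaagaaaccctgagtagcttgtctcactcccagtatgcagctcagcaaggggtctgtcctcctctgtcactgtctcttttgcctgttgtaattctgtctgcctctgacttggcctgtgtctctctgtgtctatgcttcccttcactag
Timp3 (chr10:86300162-86300461, + strand): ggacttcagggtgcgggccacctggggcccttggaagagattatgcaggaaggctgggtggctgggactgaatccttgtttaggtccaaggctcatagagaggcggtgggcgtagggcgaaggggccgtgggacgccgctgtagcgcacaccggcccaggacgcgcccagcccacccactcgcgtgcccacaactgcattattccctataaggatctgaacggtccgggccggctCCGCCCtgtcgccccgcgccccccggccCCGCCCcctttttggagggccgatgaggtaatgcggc
Adamts1 (chr16:85803064-85803363, - strand): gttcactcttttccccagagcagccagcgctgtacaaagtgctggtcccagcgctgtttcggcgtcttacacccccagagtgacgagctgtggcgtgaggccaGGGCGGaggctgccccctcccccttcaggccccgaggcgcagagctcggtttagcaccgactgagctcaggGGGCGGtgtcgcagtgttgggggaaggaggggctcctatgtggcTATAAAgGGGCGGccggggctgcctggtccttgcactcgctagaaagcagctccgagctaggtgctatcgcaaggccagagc
Mmp15 (chr8:95352046-95352345, + strand): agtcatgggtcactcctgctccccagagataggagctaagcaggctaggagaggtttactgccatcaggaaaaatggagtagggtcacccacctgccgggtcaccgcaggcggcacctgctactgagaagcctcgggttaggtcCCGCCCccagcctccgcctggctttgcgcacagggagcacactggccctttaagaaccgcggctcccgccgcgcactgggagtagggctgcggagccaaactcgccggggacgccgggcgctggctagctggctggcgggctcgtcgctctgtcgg
The Timp4 window held none of the 4 motifs and had a G and C share of 53.3%. The Adamts1 window held TATA letters at position -32 from the start, followed 1 base later by a GC box, with 2 more GC boxes upstream. The Timp3 window held GC boxes on the reverse strand at positions -15 and 14 from the start, and the Mmp15 window held 1 on the reverse strand, at position -106. None of these 4 windows held AP-1 letters or CCAAT, and no motif searched was common to Timp4, Timp3 and Adamts1.

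Genes that activate, clear or are cut by these enzymes were taken from the same fit. These gene lists were chosen with earlier results of these data known, so their counts of calls are a description and not a test. Of 10 tested other inhibitors, clearance and ADAMTS-like genes 0 were called, of 9 related ADAMs 0, of 18 substrates 0, of 7 procollagen processing genes 0 and of 9 regulators 3, against 0.396% of all genes tested (edgeR, adjusted p under 0.05). At an unadjusted p under 0.05 the numbers were 2, 0, 5, 2 and 4, against 5.96% of all genes tested. Furin, which activates membrane-type MMPs and ADAMTS precursors, had 207 ± 5.45 CPM and the related convertase Pcsk6 had 123 ± 9.64 CPM. Bsg, a surface protein that induces MMPs, had 1149 ± 67.4 CPM, and Lrp1, an endocytic receptor that clears them, 557 ± 48.7 CPM. Among substrates the basement membrane collagens led, Col4a1 at 829.4 ± 46.2 CPM and Col4a2 at 660 ± 35.1 CPM (SD, n = 4).

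Adam15, the leading ADAM of the list, had 89.7 ± 7.32 CPM and Adam9 had 54.3 ± 2.23 CPM. Bmp1, which removes the carboxy-terminal propeptide of procollagen, had 64.6 ± 3.83 CPM, and its enhancer Pcolce had 61.8 ± 2.79 CPM (SD, n = 4). Ets2, a factor known for its part in MMP promoters, had 110 ± 11.9 CPM.

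The called regulators were lower in each of libraries 2 and 3 than in either of the other libraries, and so were Timp4 and Adamts1. Timp3, Timp2, Adamts5 and Adamts9 were among other tested members with this pattern, while Mmp2, Adamts2, Adamts7 and Adamts10 were among those higher in both. Libraries 2 and 3 are also those that went against their sex label, and the part of sex in this pattern was not tested. Some of these gaps were small. Mmp2 had 84.7 CPM in library 2 against 84.6 CPM in library 4, and Timp2 134.0 CPM in library 3 against 135.9 CPM in library 4. The share of all genes with this pattern was not counted, so the members that show it cannot be set against a background. Fos and Jun, the subunits of AP-1, had 17.6, 2.37, 3.14 and 14.8 CPM and 86.5, 41.0, 40.8 and 80.5 CPM in libraries 1 to 4 (adjusted p = 0.0146 and 0.0344, edgeR). Ctgf had 157, 50.4, 126 and 145 CPM (adjusted p = 0.0146, edgeR). The MMP cluster on chromosome 9, where 8 of 12 windows hold the AP-1 letters, summed to 0.833, 0.934, 0.570 and 1.17 CPM. These were 12, 13, 6 and 18 reads, of which Mmp27, with no AP-1 letters in its window, supplied 3, 0, 0 and 5. So few reads cannot show whether the cluster varies with Fos and Jun. Whether the spread of Fos and Jun has a part in that of Timp4 or Adamts1 was not tested.

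Marker sums are given beside these values. Over libraries 1 to 4, markers of heart muscle cells summed to 73510, 73610, 83200 and 73000 CPM. Those of fibroblasts summed to 751, 764, 673 and 748 CPM. Endothelial markers summed to 1005, 1014, 1014 and 1019 CPM and macrophage markers to 169, 158, 154 and 172 CPM. The even endothelial sum joined markers that parted, with Kdr at 204, 240, 269 and 223 CPM and Tie1 at 152, 147, 114 and 144 CPM. Of the 5 endothelial markers, 2 had an unadjusted p under 0.05 (edgeR). The leading fibroblast markers parted: Dcn had 254, 179.9, 246 and 270 CPM, lowest in library 2, and Col3a1 had 263, 325, 213 and 260.1 CPM, highest there. Smooth muscle and pericyte markers, at 1257, 1164, 1278 and 1310 CPM, were lowest in library 2, and so were those of mast cells, at 11.2, 9.70, 12.1 and 12.3 CPM, and of nerve, at 8.26, 6.83, 7.89 and 8.14 CPM. Markers of fat cells summed to 1.11, 2.01, 3.52 and 1.56 CPM and of epicardium to 4.51, 6.39, 5.04 and 4.88 CPM. Of the 35 markers tested 0 were called by edgeR, and 7 had an unadjusted p under 0.05, against 5.96% of all genes tested. The part of any cell type in the spread of Timp4 was not tested.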

How the data were processed

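The authors deposited 1 table per library of raw counts of reads by gene, with no normalization. Per the submitters' processing notes the build was mm10 and the tools named, without their roles, were HTSeq, TopHat, TopHat2 2.0.10, Bowtie2, edgeR and DESeq. Neither the annotation nor how HTSeq was set is given in the sources used here. Per the labels' protocols the libraries were single-end, not strand-specific and selected for poly(A) RNA. The 5 rows that name no gene held 9.15% of the listed reads and were left out. Reads that aligned to more than 1 place made up 8.13 to 8.48%, so genes with close copies may be undercounted.

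CPM are counts per 1000000 gene counts, with no further scaling. Depth was 10523709 to 15359296 gene counts, so 0 counts in a library allow a level of up to 0.195 to 0.285 CPM (3 counts). Members' symbols were matched to GENCODE M21 on GRCm38 (46 of 46) for positions and the length of all exons joined. Within each library, log2 ratios of counts per kilobase, with 0.5 added to each count, were tested by exact permutation of signs (two-sided) and adjusted by the Benjamini-Hochberg method over 12 ratios.

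The spread was tested with edgeR 4.0.16 (R 4.3.3), an intercept-only model, trimmed mean of M-values (TMM) factors and a robust prior. The quasi-dispersion over its trend was set against an F distribution on 3 and 7.282 degrees of freedom, upper tail, and adjusted over all 12360 genes that averaged 1 CPM or more. Tested on simulated counts with 200 changed genes of 12360, the fit called 52.2% of genes with a 2-fold change, 86.6% at 4-fold and 95.5% at 8-fold. Each changed gene was shifted by that fold in 1 or 2 libraries picked at random, and dispersions were drawn from the fitted prior. The shares therefore hold for such steps under the model's own assumptions, and graded changes were not simulated. An average of 8.67 unchanged genes were called in each simulation.

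The members and gene lists were chosen with earlier results of these data known. All TIMPs, members with a mean of at least 5 CPM and called members are given by library, and the others by mean and SD or by counts, together with the highest 2 and the called genes of each list. A gene that this rule would name, and its list's count of calls, are not reported here. Alternatives were other scaling factors, no filter, a prior that is not robust, limma 3.58.1 (voom), DESeq2 1.42.0, lengths of the longest transcript, counts with no length, leaving out Rn45s and leaving out each library. Values in libraries 1 and 4 alone and in libraries 2 and 3 alone were added after the data were seen.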

Additional observations from a re-analysis of the deposited data

Results flagged for a closer look

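In 3 of 41 values checked over the 4 libraries, a single library stood apart by more than Dixon's 95% limit for 4 samples, which is set on the gap to the nearest other library divided by the whole range. Chance alone flags about 1 in 20 such values.

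Mmp2 had a gap of 0.853, with 93.0 CPM in library 3 against 83.3 to 84.7 CPM in the other 3, and its mean without library 3 was 84.2 CPM. Mmp9 had a gap of 0.857, at 1.71 CPM (18 counts) in library 3 against 1.01 to 1.11 CPM (14 to 17 counts) in the others. The log2 ratio of Timp3 to Timp1 per kilobase had a gap of 0.873, at 2.87 in library 2 against 4.07 to 4.24 in the others.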

How the results depend on the processing

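Of the members tested for spread, 1 (Timp4) was called with DESeq2 size factors, with a prior that is not robust, without Rn45s and without any single library (range 1 to 1). With no filter 3 were called (Timp4, Adamts1 and Timp3, of 17447 genes tested), with limma-voom 2, and with DESeq2's dispersion outliers 2 (Timp4 and Adamts1 in both). In libraries 1 and 4 alone 0 members were called by edgeR, and 0 had an unadjusted p under 0.05. Over all genes there were 258 calls with no filter, against 49 with it, 10 with a prior that is not robust, 129 with DESeq2 and 0 in libraries 1 and 4 alone.

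Leaving out Rn45s from the total raised the sums to 405.9 CPM for MMPs and 315.3 CPM for ADAMTS proteases, beyond 1 SD, and moved 15 of 26 member levels by more than 1 SD. That change scales every gene of a library alike. No member level moved by more than 1 SD under TMM scaling or without any single library.

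The log2 ratio of Timp3 to Timp2 turned to 0.64 with the length of the longest transcript, 0.98 with no length and 0.09 in libraries 1 and 4 alone. It ran from -0.14 to 0.01 with each library left out, and was above 0 without library 2. The ratio of summed TIMPs to MMPs turned to 0.20, 0.30 and 0.13 under the same changes and ran from -0.14 to 0.06 with each library left out. Leaving out Rn45s scales both genes of a ratio alike. The other 10 ratios kept their sign in each setting run, but some moved by over 1.5 times. Timp2/Timp4 was 1.92 in libraries 1 and 4 alone. With no length, log2 ratios were 2.16 for Timp2/Timp4, 7.04 for Timp3/Timp1, -2.46 for Mmp14/Mmp2, 0.37 for Adamts1/Adamts5, 5.76 for Adamts5/Adamts4, 2.26 for Adamts2/Adamts3 and -0.36 for ADAMTS/MMP. No paired analysis was possible because the 4 libraries form 1 group. Depth limits the members below 1 CPM, whose counts were 0 to 17 per library.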

Other observations

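The ADAMTS-like genes, relatives of the ADAMTS proteases that lack the protease domain and were not matched by the members' symbols, were detected in each library. Adamtsl4 had 94.4 ± 5.18 CPM and Adamtsl5 had 91.8 ± 4.90 CPM (SD, n = 4). Adamtsl2, which binds fibrillin and latent TGF-beta binding protein, had 9.85, 22.9, 21.6 and 12.2 CPM in libraries 1 to 4 (edgeR unadjusted p = 0.000744, adjusted p = 0.110). It was highest in library 2, where Timp4 was lowest, and libraries 1 and 4 lay below libraries 2 and 3. Adamtsl3 had 9.44, 14.1, 14.1 and 8.59 CPM (edgeR adjusted p = 0.621), and Adamtsl1 averaged 4.41 ± 0.528 CPM. These genes were chosen after their values were seen.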
